A study of Homo sapiens with 12 samples.

Results

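Haptoglobin (HP), the serum amyloid A genes SAA1 and SAA2, lipocalin 2 (LCN2), complement C3, complement factor B (CFB) and the C1 proteases C1R and C1S were followed through 12 RNA-seq libraries. These 8 genes, of 58302 in the deposited tables, were selected by symbol after their values in these libraries were known, so their levels, changes and calls in the fit are given as a description, with no p-value printed, and a call on them is not evidence independent of that choice. The cells were NCI-H226, a human mesothelioma line labelled as sensitive to the TEAD inhibitor GNE-7883, and NCI-H226_CL3, a line made from it by growth in concentrations of a TEAD inhibitor that were raised from 0.25 to 3 µM. The labels call the resistant cells NF2 null, and both lines share that background. GNE-7883 is a small molecule that inhibits TEAD, a family of transcription factors that YAP and TAZ, the effectors of the Hippo pathway, need to bind DNA. Each line received vehicle (DMSO) or GNE-7883, with 3 libraries in each of the 4 groups, named here sensitive DMSO, sensitive GNE-7883, resistant DMSO and resistant GNE-7883. Of this last incubation the dose and duration were not given in the sources used here. The resistant cells are 1 line, and what holds for them need not hold for other resistant lines.

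Acute-phase proteins are plasma proteins that the liver releases in quantity during inflammation, mainly under the control of interleukin-6 with STAT3, interleukin-1 with NF-kB, and C/EBP factors. Haptoglobin binds free hemoglobin, serum amyloid A associates with high-density lipoprotein and attracts leukocytes, and lipocalin 2 withholds iron from bacteria by capturing their siderophores. Complement is a cascade of plasma proteases in which C1r and C1s start the classical pathway, C3 is the central component cut by all pathways, and factor B supplies the protease of the alternative pathway. Epithelial, mesothelial and stromal cells also make several of these proteins.

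Total counts ran from 31878934 to 46962645 per library, and all 8 genes passed the filter on low counts, HP through its level in the sensitive line. The labels give mesothelioma as the cell type and lung epithelium as the tissue. All 12 mesothelial markers examined were detected and tested, with a summed level of 1414 to 4377 CPM (counts scaled to the library total), while the 10 lung and other epithelial markers summed to 2.57 to 7.45 CPM. As a check of drug action, the 6 YAP/TEAD targets CCN1, CCN2, ANKRD1, AMOTL2, AXL and F3 all fell with GNE-7883 in the sensitive line, and 5 of 6 fell in the resistant line. Their median log2 change was -1.95 in the sensitive and -0.45 in the resistant line. Of all genes tested, 29.8% rose and 28.4% fell in the sensitive line, and 5.25% rose and 3.97% fell in the resistant line. All 6 targets were called in the difference of the responses, each with the smaller response in the resistant line. In that difference 19.0% of all genes were called higher and 16.7% lower. Sensitive DMSO replicate 2 stood apart, with an SD of 0.19 for its log2 deviations from the group mean across genes, against 0.0631 to 0.12 in the other libraries. That library had the highest level of its group for 8 of the 8 genes, and so had replicate 2 of sensitive GNE-7883. The share of all genes that were highest in those libraries was not computed. Nothing in the labels states that replicates were grown as separate cultures, so that p-values measure the spread between these samples only, and that spread may be technical. Levels below are CPM scaled by the trimmed mean of M values (TMM), errors of log2 fold changes are standard errors, and the word called, or rose and fell, is kept for genes with an adjusted p below 0.05 in edgeR's quasi-likelihood test with Benjamini-Hochberg adjustment over 18035 genes.

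In the sensitive line all 8 genes rose with GNE-7883, by 2.22-fold in mean CPM for SAA1 up to 38.5-fold in pooled counts for HP. In the resistant line they lay lower in both treatments, by 2.55-fold for C3 and by more than that for the other 7 genes in DMSO, and 4 of the 8, C3, CFB, C1R and C1S, rose with GNE-7883. By mean CPM the line difference in DMSO was widest for HP (119-fold), SAA1 (58.2-fold), SAA2 (46.6-fold) and LCN2 (28.8-fold). It was narrower for CFB (6.61-fold), C1R (4.43-fold), C1S (3.09-fold) and C3. In pooled counts the difference for HP was 128-fold. Together the 8 genes took 0.266 to 0.291% of all counts in sensitive DMSO libraries and 0.83 to 0.901% in sensitive GNE-7883 libraries, against 0.0843 to 0.0901% and 0.128 to 0.136% in the resistant DMSO and GNE-7883 libraries. In bulk RNA, fewer cells that express a gene and less of its RNA per cell cannot be told apart.

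**Figure D1:**
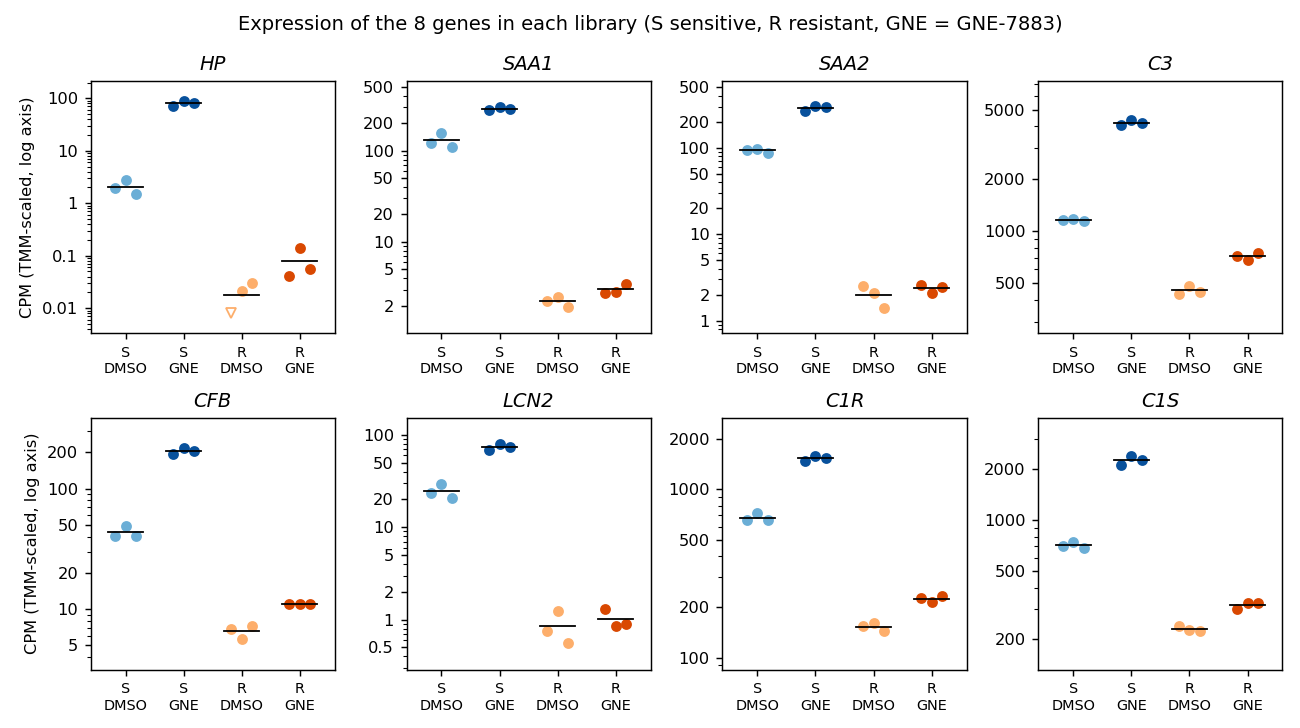
Level of each gene in every library, in TMM-scaled CPM on a log axis; points are libraries, black lines are group means, and the open triangle marks the library with no HP count. For all 8 genes, which were chosen with these values known, the 3 sensitive GNE-7883 libraries lie highest and both resistant groups lie below both sensitive groups. The share of all genes that separate in this way was not computed.

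HP (ENSG00000257017, chromosome 16, 72054592 to 72061055 on GRCh38, plus strand) encodes haptoglobin, whose complex with hemoglobin is taken up through the receptor CD163. In sensitive DMSO it stood at 1.93, 2.78 and 1.505 CPM in replicates 1 to 3, and in sensitive GNE-7883 at 72.5, 89.6 and 81.0 CPM. The libraries of the treatments did not overlap, and the ratio of the pooled counts (8624 against 256) was 38.5, with an exact 95% counting interval of 34.0 to 43.8. Its log2 fold change of 5.27 ± 0.15 ranked 5th of the 18035 genes tested. In the resistant line HP was at the edge of detection, with 0, 1 and 1 counts in the DMSO libraries and 2, 6 and 2 counts in the GNE-7883 libraries. The ratio of GNE-7883 to DMSO there was 4.79, with a counting interval of 1.02 to 45, and HP was not called. Sensitive exceeded resistant cells 128-fold in DMSO (interval 35.2 to 1065) and 1032-fold in GNE-7883 (interval 561 to 2152), where counting intervals cover counting error only.

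The serum amyloid genes SAA1 (ENSG00000173432, chromosome 11, 18266174 to 18269977, plus strand) and SAA2 (ENSG00000134339, chromosome 11, 18239223 to 18248643, minus strand) lie in 1 cluster and encode the inducible acute-phase forms of serum amyloid A. Their reads are hard to assign, because the coding sequences of 369 bases differ at 11 positions (97% identity) and single reads were 50 bases long. The stretch of 120 coding bases that holds 10 of the 11 differences, bases 205 to 324 counted from the A of the start codon, is shown from GENCODE release 29 with the differing bases in capitals.
SAA1: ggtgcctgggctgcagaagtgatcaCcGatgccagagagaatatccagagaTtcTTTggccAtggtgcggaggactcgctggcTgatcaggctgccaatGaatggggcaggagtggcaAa
SAA2: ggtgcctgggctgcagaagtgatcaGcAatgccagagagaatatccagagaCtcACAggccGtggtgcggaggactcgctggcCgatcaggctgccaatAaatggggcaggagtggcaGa
The remaining difference is G43A (SAA1 base first). Of the 50-base windows along the coding sequences, 42.3% of those of SAA1 and 29.3% of those of SAA2 occur in the other gene, so that the split of reads between the genes is uncertain and their sum is given too. Of the SAA2 windows 39.2% also occur in the annotated gene SAA2-SAA4, which that sum leaves out.

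SAA1 stood at 122, 158 and 111 CPM in sensitive DMSO and at 278, 302 and 287 CPM in sensitive GNE-7883. SAA2 stood at 95.3, 98.0 and 86.8 CPM in sensitive DMSO and at 266, 303 and 294 CPM in sensitive GNE-7883. Both genes rose without overlap of the groups, SAA1 by 1.15 ± 0.10 and SAA2 by 1.62 ± 0.092 on the log2 scale. In the resistant line SAA1 read 2.27, 2.51 and 1.93 CPM in DMSO and 2.78, 2.83 and 3.47 CPM in GNE-7883. SAA2 read 2.50, 2.10 and 1.41 CPM in DMSO and 2.57, 2.08 and 2.46 CPM in GNE-7883. There the SAA2 groups overlapped and the SAA1 groups did not, and neither gene was called, with log2 fold changes of 0.41 ± 0.17 for SAA1 and 0.21 ± 0.16 for SAA2. SAA1 was called there without sensitive DMSO replicate 2 and with no filter on low counts. The summed level went from 224 ± 29.5 to 576 ± 30.5 CPM with GNE-7883 in the sensitive line, and stood at 4.24 ± 0.78 and 5.39 ± 0.508 CPM in resistant DMSO and GNE-7883 cells (SD, n = 3). SAA1 made up 58.0 ± 3.21% of the sum in sensitive DMSO and 50.1 ± 0.85% in sensitive GNE-7883, and 53.3 ± 5.2% and 56.0 ± 3.55% in the resistant groups (SD, n = 3).

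LCN2 (ENSG00000148346, chromosome 9, 128149071 to 128153455, plus strand) encodes lipocalin 2, also called NGAL. Its levels were 23.2, 29.2 and 20.9 CPM in sensitive DMSO and 67.9, 79.5 and 73.9 CPM in sensitive GNE-7883. The sensitive groups did not overlap, and LCN2 rose by 1.59 ± 0.13 on the log2 scale. Resistant cells gave LCN2 values of 0.756, 1.23 and 0.552 CPM in DMSO against 1.29, 0.857 and 0.901 CPM in GNE-7883. These groups overlapped, and the log2 fold change of 0.23 ± 0.29 was not called. Resistant against sensitive cells, the log2 fold change of LCN2 was -4.80 ± 0.19 in DMSO and -6.16 ± 0.18 in GNE-7883.

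RefSeq promoter windows (GRCh38.p14, 250 bases before to 50 bases after a transcript start) were found for LCN2, CFB and C1R, and were searched on both strands because these genes moved together in the sensitive line. The letters were TGANTCA for AP-1, TTCNNNGAA for STAT, TTNNGNAA for C/EBP, CATTCC for TEAD, and the interferon response and kappaB motifs by name. Among 35116 promoters of the same length, AP-1 letters occurred in 7.71%, STAT letters in 7.66%, C/EBP letters in 36.8%, TEAD letters in 14%, the interferon response motif in 3.57% and the kappaB motif in 5.91%. The 188 bases before the LCN2 start (plus strand, chr9:128149265-128149452) are shown because they hold matches of 4 kinds, in capitals.
LCN2: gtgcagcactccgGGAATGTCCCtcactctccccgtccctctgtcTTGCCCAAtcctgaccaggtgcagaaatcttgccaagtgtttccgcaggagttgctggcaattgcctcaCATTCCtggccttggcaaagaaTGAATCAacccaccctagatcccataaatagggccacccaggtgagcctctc
From left to right the capitals mark the kappaB motif, which overlaps a TEAD match, then C/EBP, TEAD and AP-1 letters. A match describes the letters in the window and not a bound site.

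C3 (ENSG00000125730, chromosome 19, 6677704 to 6730562, minus strand), encodes the component on which the complement pathways converge. It stood at 1154, 1174 and 1149 CPM in sensitive DMSO and at 4065, 4344 and 4167 CPM in sensitive GNE-7883. Resistant cells held 435, 484 and 447 CPM in DMSO and 718, 680 and 752 CPM in GNE-7883. Neither pair of groups overlapped, and C3 rose by 1.85 ± 0.054 in the sensitive and by 0.65 ± 0.053 in the resistant line on the log2 scale. Resistant GNE-7883 cells thus held less C3 RNA than sensitive cells without the inhibitor.

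CFB (ENSG00000243649, chromosome 6, 31945650 to 31952084, plus strand) encodes factor B, which binds C3b and carries the protease of the alternative pathway convertase. It read 40.3, 49.2 and 40.3 CPM in sensitive DMSO and 193, 215 and 205 CPM in sensitive GNE-7883. Resistant cells gave 6.78, 5.65 and 7.18 CPM in DMSO and 11.1, 11.1 and 11.1 CPM in GNE-7883. The log2 changes with GNE-7883, 2.24 ± 0.085 in the sensitive and 0.77 ± 0.10 in the resistant line, were the largest among those of the 8 genes with at least 5 CPM in DMSO cells of that line. The promoter window of CFB held 1 match to STAT letters and 1 to the interferon response motif before the start, and 30 bases around each are shown with the match in capitals (plus strand, chr6:31945992-31946021 for STAT and chr6:31945945-31945974 for the interferon response).
CFB STAT: ccgcttggatgTTCCGGGAAagtgatgtgg
CFB interferon: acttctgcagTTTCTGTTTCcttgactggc
A TEAD match lay after the start of CFB, at bases 7 to 12.

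C1R (ENSG00000159403, chromosome 12, 7080199 to 7092607, minus strand) and C1S (ENSG00000182326, chromosome 12, 6988259 to 7071032, plus strand) encode the paired proteases of the C1 complex and lie 9167 bases apart. C1R stood at 655, 718 and 657 CPM in sensitive DMSO and at 1476, 1572 and 1530 CPM in sensitive GNE-7883. For C1R the resistant libraries stood at 154, 160 and 143 CPM in DMSO and at 225, 215 and 232 CPM in GNE-7883. C1R therefore rose in both lines without overlap, by 1.17 ± 0.057 and 0.55 ± 0.057 on the log2 scale.

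C1S stood at 706, 740 and 682 CPM in sensitive DMSO and at 2117, 2360 and 2253 CPM in sensitive GNE-7883. For C1S the resistant libraries stood at 240, 225 and 223 CPM in DMSO and at 299, 326 and 325 CPM in GNE-7883. Its log2 changes were 1.66 ± 0.058 in the sensitive and 0.46 ± 0.057 in the resistant line, again without overlap. No 50-base window of the coding sequence was shared between C1R and C1S (0% of windows). RefSeq gave 2 promoter windows for C1R, and 1 of them held 3 matches to the TEAD letters. Of the 35116 promoters 0.128% held 3 or more, a cut that equals the C1R count and was applied to no other motif. The 30 bases that hold the 3 matches (minus strand, chr12:7092509-7092538, bases -93 to -64 from the start) are shown with the matches in capitals.
C1R: tCATTCCctccaaCATTCCtccgGGAATGg
The last of these matches reads CATTCC on the other strand. The same window also held C/EBP letters at bases -151 to -144 and -106 to -99. The other window of C1R held no TEAD letters, but STAT letters at bases -86 to -78 and C/EBP letters at -167 to -160.

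Counted over the comparisons, with GNE-7883 in the sensitive line 8 of the 8 genes were called higher, where 29.8% of all genes tested were called higher and 28.4% lower. With GNE-7883 in the resistant line 4 were called higher and 0 lower (0 lower also at an unadjusted p under 0.05 and with DESeq2), where 5.25% of all genes were called higher and 3.97% lower. Resistant against sensitive cells, all 8 were called lower in DMSO (24.2% of all genes higher, 24.4% lower) and all 8 in GNE-7883 (30.7% higher, 31.1% lower). Because the genes were selected on these libraries, nothing is read from these counts. The medians of the 8 log2 fold changes were 1.64, 0.51, -3.77 and -5.18 in these comparisons, against 0.02, -0.0028, -0.0020 and -0.01 over all genes tested. The comparisons share libraries, so they are not independent of each other.

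**Figure D2:**
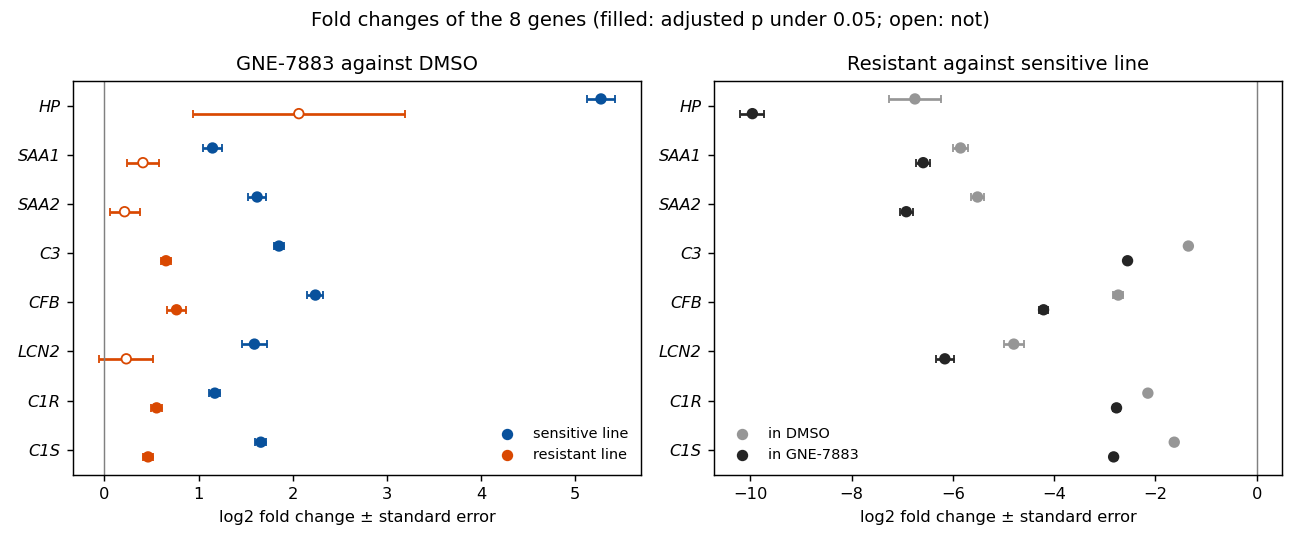
Log2 fold changes of the 8 genes with standard errors (x axis), for GNE-7883 against DMSO in each line (left) and for the resistant against the sensitive line in each treatment (right); filled points were called and open points were not. In the left panel the sensitive line lies to the right of the resistant line for all 8 genes, and in the right panel the values in GNE-7883 lie further below 0 than those in DMSO.

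The response to GNE-7883 differed between the lines in the fit for 7 of the 8 genes, each with the smaller response in the resistant line, where 19.0% of all genes tested were called higher and 16.7% lower in this difference. The difference of log2 changes, resistant minus sensitive, was -1.48 ± 0.13 for CFB, -1.41 ± 0.19 for SAA2, -1.36 ± 0.32 for LCN2, -1.20 ± 0.075 for C3 and -1.20 ± 0.080 for C1S. It was smaller for SAA1 (-0.74 ± 0.20) and C1R (-0.62 ± 0.080). HP had the most negative value, -3.21 ± 1.92, but HP had 12 counts in the 6 resistant libraries and was called by DESeq2 and not by edgeR. The line difference also varied among the genes. In DMSO the log2 fold change of resistant against sensitive cells was -6.75 ± 0.51 for HP, -5.85 ± 0.14 for SAA1, -5.51 ± 0.13 for SAA2 and -4.80 ± 0.19 for LCN2. It was -2.73 ± 0.097 for CFB, -2.15 ± 0.059 for C1R, -1.63 ± 0.058 for C1S and -1.35 ± 0.054 for C3.

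Levels can be compared between genes only per length, in the deposited RPKM (reads scaled by gene length and library total). In sensitive DMSO the order of mean RPKM was C1R at 237 ± 14.1, C3 at 215 ± 3.93, C1S at 188 ± 9.01 and SAA1 at 166 ± 32.4, then SAA2 at 40.9 ± 2.81, LCN2 at 22.9 ± 4.21, CFB at 14.7 ± 1.86 and HP at 1.11 ± 0.355 (SD, n = 3). SAA1 and C1S overlapped in that order and did not differ beyond their spread. In sensitive GNE-7883 C3 led at 775 ± 26.1 RPKM, followed by C1S at 595 ± 32.4 and C1R at 534 ± 16.9, and C3 ranked 29th of all genes by mean RPKM. CFB at 69.5 ± 3.77 and LCN2 at 68.9 ± 5.39 RPKM overlapped there. In both resistant groups the order was C3, C1S, C1R, SAA1, CFB, SAA2, LCN2 and HP, with C3 at 88.7 ± 4.77 RPKM in DMSO and 140 ± 6.31 in GNE-7883. In that order SAA2 and LCN2 overlapped in both resistant groups, C1S and C1R, at 88.7 ± 4.88 and 82.8 ± 2.81 RPKM, overlapped in resistant GNE-7883, and SAA1 and CFB, at 4.06 ± 0.512 and 3.97 ± 0.029 RPKM, did so too. The RPKM of SAA1 and SAA2 rest on lengths of 0.765 and 2.23 kb, so their order per length also carries the uncertain split of reads and the length assigned to each gene.

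**Figure D3:**
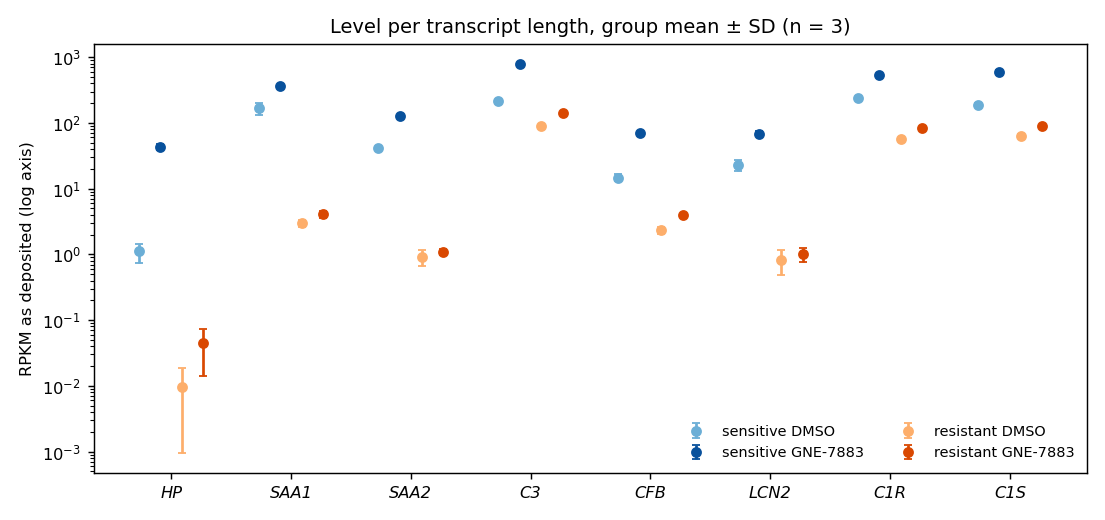
Mean deposited RPKM of each gene on a log axis with SD (n = 3) in the 4 groups. C3, C1R and C1S lie between 56.3 and 775 RPKM in all groups, whereas HP spans from 0.00976 to 43.1 RPKM.

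The gene lists below, like the 8 genes, were chosen with earlier results of these data known. Many of the genes named from them were picked by the size of their change. Their counts, calls and p-values are therefore given as a description and are not evidence independent of that choice. Other acute-phase genes were mixed. Of 28 such genes 11 were tested, and with GNE-7883 in the sensitive line 8 rose and 2 fell, with a median log2 change of 0.74 against 0.02 over all genes. Of all genes tested, 29.8% rose and 28.4% fell in that comparison, and these shares stand behind every sensitive-line count below. Behind the counts with GNE-7883 in the resistant line stand shares of 5.25% and 3.97%. The relatives of HP and SAA2 changed most: HPR, the haptoglobin-related gene 2093 bases from HP, had 49 counts in sensitive GNE-7883 against 1 in sensitive DMSO (ratio 56.0, counting interval 9.60 to 2258), and SAA4, the constitutive serum amyloid gene 2330 bases from SAA2, rose by 2.25 ± 0.30. HP shares 23.7% of its 50-base coding windows with HPR, so that reads of HP and HPR cannot be told apart with certainty. Resistant GNE-7883 libraries held 0 counts of both HPR and SAA4, against 49 and 142 counts in the sensitive GNE-7883 libraries. PTX3, a locally made pentraxin, ran opposite to the 8 genes between the lines, with a log2 fold change of 2.14 ± 0.11 in resistant against sensitive cells in DMSO.

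The partners of C1R, C1S, C3 and CFB in the cascade moved partly with them. In the classical and lectin pathway list 5 of 7 tested genes rose with GNE-7883 in the sensitive line and 1 fell (median 1.29). MASP2 rose most (2.96 ± 0.48), and COLEC10 was the gene that fell (-2.12 ± 0.25). C4B and C4A, near-identical genes for the C1s substrate C4, rose by 1.51 ± 0.13 and 1.38 ± 0.12, C1RL, a C1r-like protease gene whose annotation overlaps C1R, by 1.29 ± 0.058, and C2, the classical pathway counterpart of CFB next to it, by 0.63 ± 0.16. C1RL was the 1 called gene of the 7 in the resistant line, at 0.42 ± 0.060. Of the 4 tested genes of the alternative and terminal pathways other than C3 and CFB, C8A rose in the sensitive line (2.03 ± 0.41). With GNE-7883 in the resistant line 0 were called by edgeR's test, at an unadjusted p under 0.05 or with DESeq2. For C8A the fit gave a log2 change of 0 there without a standard error, so that a response of C8A could not be judged. C5, the terminal component cut after C3, was higher in resistant than in sensitive cells in DMSO (1.21 ± 0.15), opposite to C3.

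Among the regulators that restrain C1r, C1s, C3 and factor B, 8 of 13 tested genes rose and 1 fell with GNE-7883 in the sensitive line (median 0.57). The gene that fell was C4BPB (-3.22 ± 0.29), the largest change of the list. CFI, the protease that inactivates C3b, went from 118 ± 3.76 to 345 ± 10.6 CPM (1.54 ± 0.077, edgeR adjusted p = 1.29e-10). SERPING1, the inhibitor of C1r and C1s, rose by 0.57 ± 0.058, less than C1R and C1S. Among resistant cells 4 regulators rose, among them CFI (1.27 ± 0.10) and VTN (0.59 ± 0.076). Between the lines in DMSO, CFI was lower in resistant cells (-4.79 ± 0.097).

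All 5 tested complement receptors rose with GNE-7883 in the sensitive line (median 1.41), among them C3AR1, the receptor of the C3a fragment, from 0.317 ± 0.089 to 2.17 ± 0.313 CPM. With GNE-7883 in resistant cells C3AR1 (0.81 ± 0.21), ITGAX (0.36 ± 0.078) and ITGB2 (0.27 ± 0.076) were called, and this count of 3 was 1 without resistant DMSO replicate 1 or without resistant GNE-7883 replicate 3. C3AR1 was also not called without resistant DMSO replicate 2 (edgeR adjusted p = 0.0966), nor ITGB2 without resistant DMSO replicate 3 or resistant GNE-7883 replicate 1 (edgeR adjusted p = 0.105 and 0.125).

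**Figure D4:**
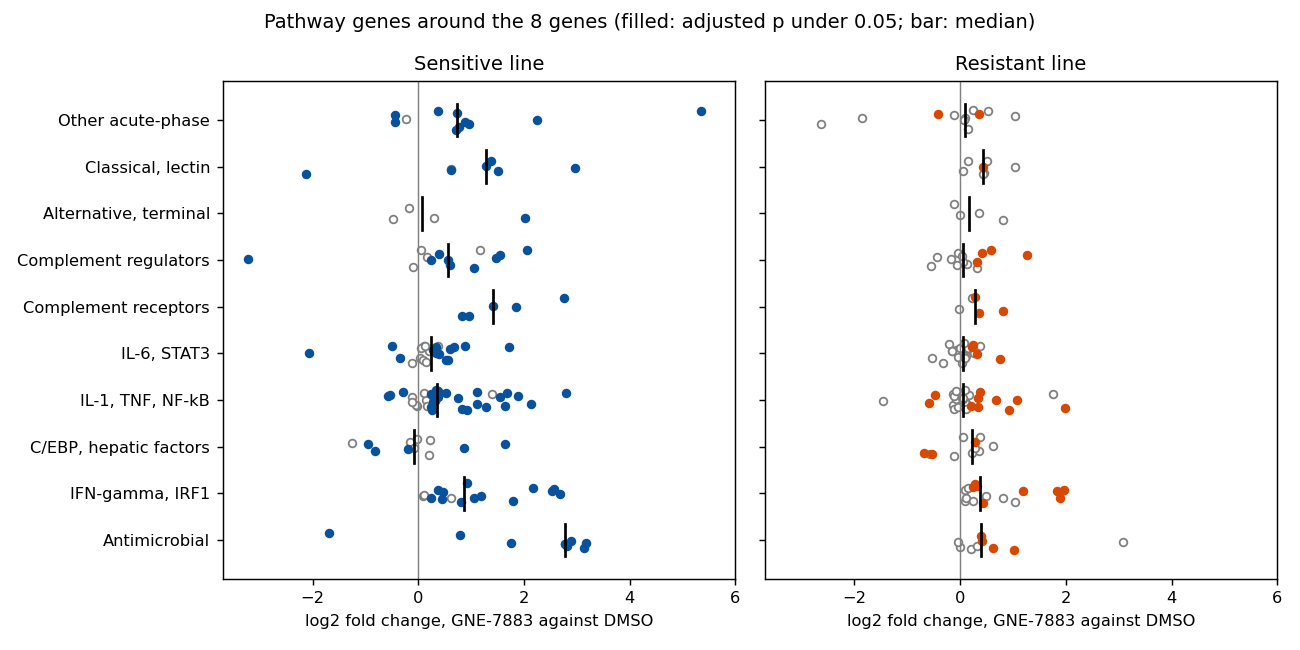
Log2 fold change with GNE-7883 against DMSO (x axis) of the tested genes of 10 lists in the sensitive (left) and resistant (right) line; filled points were called, open points were not, and bars are list medians. The list medians lie between -0.08 and 2.78 in the sensitive line and between 0.05 and 0.42 in the resistant line.

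The signalling systems known to control HP, SAA1, SAA2, LCN2, C3 and CFB were followed with the same tests. In the IL-6 and STAT3 list 10 of 22 tested genes rose and 3 fell with GNE-7883 in the sensitive line (median 0.24). The largest change of the list was a fall, that of IL11 (-2.08 ± 0.13). Of all genes tested, 29.8% rose and 28.4% fell in that comparison. STAT3, the transcription factor of the pathway, went from 383 ± 19.7 to 708 ± 8.37 CPM (0.89 ± 0.048, edgeR adjusted p = 3.35e-10). IL6 itself stood at 21.3 ± 1.35 and 25.9 ± 2.24 CPM (0.28 ± 0.094, edgeR adjusted p = 0.0186) and was not called without sensitive DMSO replicate 1 or 3 or without sensitive GNE-7883 replicate 2 (edgeR adjusted p = 0.0552, 0.0622 and 0.101). In DMSO, resistant cells held less IL6 (-2.57 ± 0.11) and less of its feedback inhibitor SOCS3 (-1.95 ± 0.075).

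With GNE-7883 in resistant cells 4 of the 22 IL-6 and STAT3 genes rose, while IL6 (0.15 ± 0.12) and STAT3 (0.10 ± 0.048) were not called. Of all genes tested, 5.25% rose and 3.97% fell in these cells. That count of 4 was 1 without resistant DMSO replicate 1 or 3 or resistant GNE-7883 replicate 3, and 2 without resistant DMSO replicate 2, resistant GNE-7883 replicate 1 or with the replicate block. STAT3 was called there without sensitive DMSO replicate 2 (edgeR adjusted p = 0.0488).

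The IL-1, TNF and NF-kB list had 21 of 32 genes higher and 3 lower with GNE-7883 in the sensitive line (median 0.36), and 5 lower without sensitive DMSO replicate 2. IL1R1, the signalling receptor of interleukin-1, went from 68.5 ± 7.38 to 476 ± 17.7 CPM (2.80 ± 0.079, edgeR adjusted p = 2.91e-13), and NFKBIZ, an atypical I-kappa-B protein needed for induction of LCN2 among other genes, from 26.6 ± 2.74 to 97.8 ± 4.3 CPM (1.88 ± 0.074). Of the same 32 genes 8 rose and 2 fell in the resistant line, with IL1R1 at 0.92 ± 0.091, and the 8 were 5 without resistant DMSO replicate 2 or 3 or resistant GNE-7883 replicate 1 or 3. NFKBIZ (0.35 ± 0.081 there) was not called without resistant DMSO replicate 2 or 3 or resistant GNE-7883 replicate 3. In DMSO, resistant cells held less IL1R1 (-3.40 ± 0.089) and more IL33 (4.35 ± 0.45) and IL1B (2.27 ± 0.069).

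C/EBP and hepatic transcription factors had 2 of 11 tested genes higher and 3 lower in the sensitive line (median -0.08). Of all genes tested, 29.8% were called higher and 28.4% lower. The count of 3 lower was 1 without sensitive DMSO replicate 1 or sensitive GNE-7883 replicate 1, and 5 with no filter on low counts. CEBPB rose from 71.3 ± 9.04 to 130 ± 7.99 CPM (0.86 ± 0.079). CEBPD (0.21 ± 0.10) was not called, but was called without sensitive DMSO replicate 2 (0.37, edgeR adjusted p = 0.000313).

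In the interferon-gamma and IRF1 list 13 of 16 tested genes rose and 0 fell in the sensitive line (median 0.86), and 0 fell at an unadjusted p under 0.05 or with DESeq2. IRF1, a transcription factor of CFB and other complement genes, went from 17.7 ± 2.17 to 36.9 ± 1.69 CPM (1.06 ± 0.079). Of these 16 genes 8 rose in the resistant line, IRF1 among them (0.42 ± 0.078), and that count was 4 without resistant DMSO replicate 1 and 5 without resistant DMSO replicate 3 or resistant GNE-7883 replicate 3. Between the lines in DMSO, IRF1 stood at 20.2 ± 0.672 CPM in resistant cells (0.20 ± 0.080, not called by edgeR at an adjusted p of 0.0547). It was called without sensitive DMSO replicate 2 (0.30, edgeR adjusted p = 0.000735), with RLE size factors, with a filter of 5 CPM and with the replicate block (edgeR adjusted p = 0.0486, 0.0493 and 0.0442).

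Antimicrobial genes that often accompany LCN2 rose in the sensitive line for 8 of 9 tested genes and fell for 1 (median 2.78). CHI3L1, a chitinase-like secreted protein, went from 29.6 ± 0.97 to 262 ± 4.49 CPM (3.14 ± 0.063, edgeR adjusted p = 1.63e-14). Among resistant cells 4 rose, led by CHI3L1 (1.02 ± 0.10), and 2 did without resistant DMSO replicate 1. Of the binding partners and receptors of the 8 proteins 5 of 10 tested rose and 1 fell in the sensitive line, among them MMP9, a protease that lipocalin 2 binds (3.14 ± 0.18), and HMOX1, which degrades heme (1.5 ± 0.078).

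The libraries do not mark strand, so reads in stretches shared by overlapping genes cannot be told apart. With GNE-7883 in the sensitive line TXNL4B, which spans HP, was not called (0.11 ± 0.069), GPR108, which overlaps the start of C3, rose by 0.30 ± 0.075, and LPCAT3, which overlaps C1S, rose by 0.63 ± 0.065. The closest genes without overlap went both ways: NELFE, 3 bases beyond CFB, fell by 0.84, and TNFSF14, 7116 bases from C3, rose by 2.91 ± 0.16.

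The genes whose levels were most like each of the 8 were sought by Pearson's r of log2 CPM over the 12 libraries among 11396 genes that reached 5 CPM in some group. These libraries are 4 groups, so a high r describes a shared order of group levels and carries no p. For HP the closest was SLC39A8, a zinc and manganese transporter (r = 0.9963), and it was also closest to C1S (r = 0.9991), with mean levels of 226 and 770 CPM in sensitive DMSO and GNE-7883 cells and of 66.9 and 88.5 CPM in resistant DMSO and GNE-7883 cells. For SAA1 it was NNMT (r = 0.9989), for SAA2 PLCB2 (r = 0.9980), for LCN2 MAPT (r = 0.9966), for C3 the amino acid transporter SLC7A8 (r = 0.9988), for CFB GABARAPL1 (r = 0.9982) and for C1R MOV10 (r = 0.9990). The closest 3 also held CHI3L1 and IL1R1 for CFB (r = 0.9974 and 0.9973), VTN for C1R (r = 0.9985), C1RL for C1S (r = 0.9982) and ICAM1 for LCN2 (r = 0.9959). Among the 8 genes themselves r ran from 0.887 (SAA1 with C3) to 0.997 (SAA1 with SAA2, SAA2 with LCN2, and CFB with C1S).

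Markers of cell types that make these proteins elsewhere were examined in the same libraries. The 12 hepatocyte markers summed to 2.67 to 2.77 CPM in sensitive DMSO libraries and 11.96 to 14.2 CPM in sensitive GNE-7883 libraries, and to 0.71 to 0.844 and 1.23 to 1.77 CPM in the resistant DMSO and GNE-7883 libraries, with 11 of 12 under 1 CPM in every library and FGA at 0 counts throughout. The exception was APOA1, which had 234 counts in the sensitive DMSO and 1275 in the sensitive GNE-7883 libraries. The 12 monocyte and macrophage markers summed to 10.1 to 10.5, 25.0 to 25.4, 3.76 to 4.39 and 4.26 to 4.85 CPM in the same order, of which ITGAM held 15.6 ± 0.0854 and CD14 5.53 ± 0.426 CPM in sensitive GNE-7883, while CD68 and C1QB were listed at 0 in all libraries. The 9 neutrophil markers summed to 0.23 to 0.575, 2.34 to 3.14, 0.0866 to 0.184 and 0.0546 to 0.125 CPM, with MPO at 0. The 12 mesothelial markers summed to 3000 to 3275, 4171 to 4377, 1414 to 1520 and 1795 to 1917 CPM in the same order. By gene, 9 of these 12 rose and 2 fell with GNE-7883 in the sensitive line, and 4 rose in the resistant line. In resistant against sensitive DMSO cells 9 were called lower (24.4% of all genes tested) and 1 higher (24.2% of all genes tested). The 1 higher was the keratin gene KRT5 (0.39 ± 0.065), which fell with GNE-7883 in the sensitive line (-1.38 ± 0.068). The 8 fibroblast markers summed to 940 to 1023, 612 to 685, 525 to 626 and 644 to 740 CPM. Mitochondrial transcripts took 0.522 to 0.622%, 0.954 to 1.09%, 0.561 to 0.685% and 0.614 to 0.693% of counts. Their part in the levels of the 8 genes was not tested.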

How the data were processed

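RNA was sequenced from 12 libraries (TruSeq RNA kit v2, single-end 50-base reads, on average 56 M per sample, per the labels' protocols). The authors deposited a table of raw counts by Ensembl gene, not normalized, and RPKM values for the same 58302 genes. The submitters' processing notes name GSNAP, GRCh38.p10 and limma; counting tool and annotation: not given in the sources used here. Over 12122 genes with at least 50 counts, count over RPKM was checked to be a gene factor times a library total (relative deviation 9.5e-09 at most). Counts were tested in R 4.3.3 with edgeR 4.0.16, after TMM scaling and filterByExpr by group (18035 genes kept), by quasi-likelihood fits over all 12 libraries without a replicate block (8 residual degrees of freedom), two-sided tests, 5 comparisons. The script recovered known changes in simulated counts. Levels are TMM-scaled CPM; a count of 0 allows 0.0639 to 0.0941 CPM (3 counts). Coordinates came from GENCODE 29, promoters from RefSeq. The 8 genes and the gene lists were chosen with earlier results of these data known. Named list genes are the 3 called genes with the largest change per list and a set of paralogs, neighbours and regulators; likeness used log2 CPM with a prior count of 2. Alternatives were RLE scaling, DESeq2 1.42.0, other filters, the replicate block, each library left out, and summed copies. For lists and named genes they were added after seeing the data. Some genes of the lists are not reported here.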

Additional observations from a re-analysis of the deposited data

Results flagged for a closer look

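For 7 of the 8 genes, which had been selected with these values known, edgeR's fit called a smaller response to GNE-7883 in the resistant than in the sensitive line. On the log2 scale the resistant response minus the sensitive one was -0.74 for SAA1, -1.41 for SAA2, -1.20 for C3, -1.48 for CFB, -1.36 for LCN2, -0.62 for C1R and -1.20 for C1S.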

How the results depend on the processing

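Over 18 alternatives, 687 of 690 log2 fold changes of the 8 genes kept their direction and their side of the threshold, and the 3 others, SAA1 in the resistant line under 2 settings and HP in the difference of responses with DESeq2, gained a call; none reversed. The counts of called members stayed within 1.5 times of those reported, and with the replicate block 8 were higher in the sensitive line, 4 higher in the resistant line, 8 lower in each line comparison and 7 lower in the difference of responses. Replicate numbers did not pair the samples across all groups: the correlation of same-numbered deviations ran from -0.52 to 0.49 over 18 pairs and was over 0.1 in 5. Between the lines in DMSO it was 0.031, 0.49 and 0.48 for replicates 1 to 3. Between the lines in GNE-7883 it was 0.24, 0.28 and -0.018, and what lies behind these values was not tested. For genes named from the lists, 3729 values kept direction and side of the threshold over the alternatives, 93 lost a call and 10 gained one. List counts moved by more than 1.5 times, or to or from 0, in 107 cases and did not in 2233. Among list genes, 3 uncalled values changed sign, in 6 cases. HPR in resistant against sensitive DMSO cells, which rests on 1 count per group, was 0.010 with DESeq2 and ran from -1.85 to 1.85 over the fits that left out 1 library (0.47 and 0.33 without resistant DMSO replicates 1 and 3). In the difference of responses CEBPD ran from -0.0049 (without sensitive DMSO replicate 2) to 0.26, and IL6 from -0.19 to 0.017 (without resistant GNE-7883 replicate 2); the cause was not tested. A filter of 5 CPM left fewer genes tested: with GNE-7883 in the sensitive line 3 other acute-phase, 4 antimicrobial, 8 interferon, 3 classical and lectin, 3 binding partner and 0 alternative and terminal pathway genes were then called higher, and 0 regulators and 0 antimicrobial genes lower. HPR and SAA4 gave no value in the resistant line without resistant DMSO replicate 2, where their counts were 0, and genes to which DESeq2 gave no adjusted p were not compared with it. Depth limits HP, HPR and SAA4 in the resistant line, where they had 12, 1 and 2 counts over 6 libraries.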
